A study of Homo sapiens with 12 samples.

Results

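The response of 2 human prostate cancer cell lines to loss of FOXA1 was compared gene by gene, as the change after FOXA1 siRNA in VCaP minus the same change in PC3. All 12 RNA-seq libraries of the series entered this comparison, with 3 in each of 4 groups named in the sample titles: PC3 NSI, PC3 siFOXA1, VCaP NSI and VCaP siFOXA1. NSI is the non-targeting siRNA and siFOXA1 the siRNA against FOXA1. PC3, a line from a bone metastasis, was transfected with 20 nM siRNA in RPMI-1640, and its libraries came from polyA RNA with the TruSeq stranded mRNA kit. VCaP, a line from a vertebral metastasis with an ERG rearrangement, was transfected with 40 nM siRNA in DMEM, and its libraries came from the TruSeq total RNA kit. RNA was taken after 72 h in both lines, and both had foetal calf serum in the medium. The line therefore cannot be told apart from the dose, the medium, the kit, the use of strand in counting or the depth of the knockdown. Each group is 1 line under 1 siRNA condition, and the labels do not say that replicates were separate cultures, so p-values measure the spread between these libraries, which may be technical.

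FOXA1 is a forkhead pioneer factor: it binds closed chromatin and opens it for other factors. In luminal prostate cells it acts at enhancers of secretory genes. Interferon-stimulated genes, which recur below, are switched on through interferon-stimulated response elements (ISREs) in their promoters, and many genes of mitosis are driven through a promoter element called the cell cycle homology region (CHR).

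The 6 PC3 libraries held 123140099 to 188226483 counts each and the 6 VCaP libraries 48187047 to 59839211, and mitochondrial genes took 13.1% to 15.7% of counts in PC3 and 3.02% to 4.69% in VCaP. Marker genes ERG and VIM, from a list of 15, matched the labels in the NSI libraries. ERG, which VCaP carries rearranged, had a mean of 0.029 CPM (counts scaled to library size) in PC3 and 234 in VCaP. VIM was at 742 CPM in PC3 and 0.258 in VCaP. HOXB13, from the same list, was higher in PC3 NSI, at a mean of 358 CPM, than in VCaP NSI, at 248. Such a match was therefore not shown for the whole list. FOXA1 (chr14:38059189-38064239, minus strand, GRCh37) stood at 301.6, 242.7 and 263.4 CPM in the PC3 NSI libraries and 168, 183 and 167 after siFOXA1. In VCaP it went from 447, 458 and 539.5 CPM to 85.4, 73.3 and 83.4. The groups did not overlap in either line, and 64.1% of the mean level was left in PC3 against 16.8% in VCaP. The log2 effect was -0.64 (SE 0.10, adjusted p = 0.000346) in PC3 and -2.58 (SE 0.11, adjusted p = 4.01e-10) in VCaP, a difference of -1.94 (SE 0.15, adjusted p = 2.98e-07, edgeR). Within each line an exact permutation test, two-sided, gave p = 0.1, and no arrangement of 3 against 3 can give less. FOXA2, a paralogue, was at 29.3 to 34.7 CPM in the PC3 NSI libraries and 30.2 to 46.4 after siFOXA1, which was not a called change (0.22). In VCaP it rose from 0.0564, 0.156 and 0.138 CPM to 2.07, 1.80 and 1.72 (log2 3.98), from a near-zero base.

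The lines differed in their response at 6744 of 30450 genes tested (22.1%; adjusted p under 0.05 in edgeR's quasi-likelihood test over all 12 libraries). The VCaP effect was the more positive at 3379 genes (11.1%) and the more negative at 3365 (11.1%). For scale, siFOXA1 against NSI gave 9106 calls in PC3 (29.9%), 16.2% of genes higher and 13.7% lower, and 8538 in VCaP (28.0%), 15.0% higher and 13.1% lower. The median over all genes of the difference was 0.05, against 0.01 for the PC3 effect and 0.06 for the VCaP effect, all log2. NSI and siFOXA1 libraries did not overlap at 39.4% of all genes tested in PC3 and 46.7% in VCaP, and at 45.6% and 58.5% of those with enough counts in each line. In bulk RNA, fewer cells of a type and less RNA per cell cannot be told apart.

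Of 19282 genes with enough counts in each line, 31.3% had a called difference, and the calls sort them by pattern. Responses were called in both lines in the same direction, with no called difference, at 1525 genes (7.91%): 707 rose and 818 fell. A further 549 (2.85%) moved the same way in both lines but by unequal amounts, with the larger change in VCaP at 399 of them and in PC3 at 150. Opposite changes, each called in its own line, were found at 1036 genes (5.37%), of which 583 rose in PC3 and fell in VCaP and 453 did the reverse. A change was called in VCaP but not in PC3, with a called difference, at 2531 genes (13.1%, 1314 up and 1217 down). The same held for PC3 but not VCaP at 1687 genes (8.75%, 869 up and 818 down). A missing call in the other line does not show that the gene was unchanged there. Another 1572 genes were called in VCaP only and 2209 in PC3 only without a called difference, so these cannot be assigned to a line. Same-numbered PC3 libraries deviated together, and blocking on that number in PC3 counted 950 genes moving the same way by unequal amounts and 1570 in opposite directions. With the block in both lines these were 1096 and 1658, and 898 of the opposite genes rose in PC3.

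**Figure D1:**
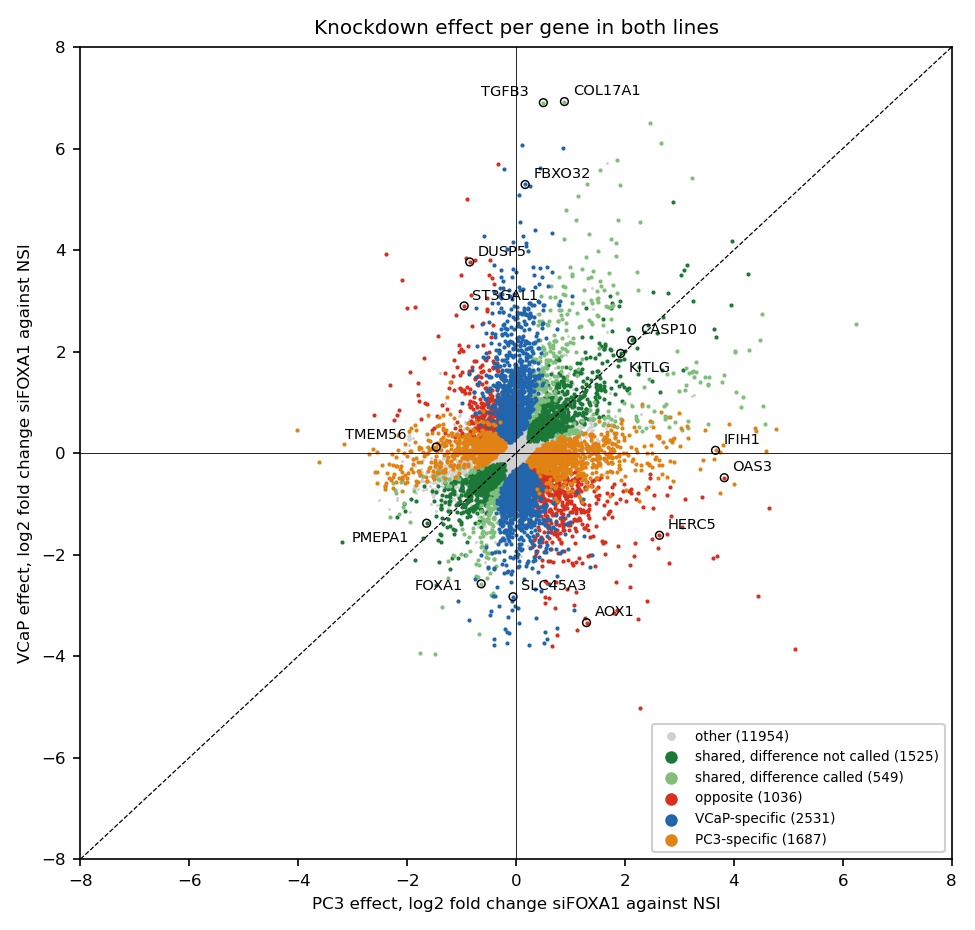
The log2 effect of siFOXA1 in PC3 (x axis) against that in VCaP (y axis) for the 19282 genes with enough counts in each line, coloured by pattern, with named genes labelled. Points on the diagonal changed equally in both lines, and the upper left and lower right quadrants hold genes that moved in opposite directions.

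Interferon effectors, the antiviral proteins made after interferon signalling, rose throughout PC3 and took mixed directions in VCaP. All 50 members of a list of such genes were tested, and 49 rose in PC3, with a median log2 effect of 2.93. In VCaP 16 rose and 8 fell, with a median of 0.44. The difference was called at 39 of 50 members, 38 of them more negative in VCaP, and its median was -2.18. The summed level of the list went from 2378, 2239 and 2663 CPM to 14762.5, 14661 and 14334 CPM in PC3. In VCaP the sum went from 672, 658.5 and 685.5 CPM to 589, 577 and 610 CPM. The VCaP libraries thus ended slightly below where they began, while the PC3 libraries rose several-fold without overlap. Among the 39 members with enough counts in each line, 7 moved in opposite directions (IFITM3, OAS3, ISG15, USP18, HERC5, HERC6 and EIF2AK2). At 16 a change was called in PC3 alone, with a called difference. Another 14 of the 39 rose in both lines by unequal amounts, and 1 rose in both with no called difference. Of 9 leukocyte markers 4 had enough counts to be tested, and all 4 rose in PC3: PTPRC from a mean of 0.024 to 0.111 CPM, LYZ from 0.345 to 0.741, CD14 from 0.193 to 0.334 and CD68, a lysosomal protein of macrophages, from 28.1 to 47.1. In VCaP CD14 rose from 0.691 to 2.74 CPM and PTPRC fell from 0.111 to 0.0196. The T cell marker CD3E was at 0.0132 CPM or less in every group mean. The 9 summed to 26.8 to 29.9 CPM in PC3 NSI and 46.4 to 52.1 after siFOXA1, nearly all of it CD68, and to 1.16 to 1.56 and then 2.91 to 3.74 in VCaP. Their part in the interferon results was not tested.

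OAS3 (chr12:113376157-113411054, plus strand), which makes the oligoadenylate that activates RNase L, stood at 50.7, 29.9 and 53.3 CPM in the PC3 NSI libraries and 655, 536 and 706 after siFOXA1. In VCaP it was at 81.3, 74.3 and 80.7 CPM before and 56.4, 53.8 and 58.5 after. The groups separated in both lines, in opposite directions. Its log2 effect was 3.82 in PC3 and -0.49 in VCaP (adjusted p = 0.040), a difference of -4.31 (SE 0.24, adjusted p = 1.42e-08). The fall in VCaP lost its call when any 1 of the 6 VCaP libraries was left out (adjusted p from 0.058 to 0.115), while the difference kept its call. HERC5 (chr4:89378268-89427314, plus strand), the ligase that attaches ISG15 to new proteins, went from 3.44, 3.46 and 3.87 CPM to 23.5, 20.9 and 22.5 in PC3, and from 7.56, 8.79 and 6.60 to 2.91, 2.42 and 2.14 in VCaP. No NSI library overlapped a siFOXA1 library of its line, and the difference was -4.25 (SE 0.18, adjusted p = 1.29e-09). HERC6, a relative of HERC5, differed by -4.29 (SE 0.20), from a rise of 3.42 in PC3 and a fall of 0.88 in VCaP. USP18, which removes ISG15 and damps the receptor, rose by 3.09 in PC3 and fell by 0.91 in VCaP, a difference of -4.00 (SE 0.13, adjusted p = 7.72e-11). USP18 has near-identical copies in the genome and divided fragments make its level less certain.

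The RNA sensor genes IFIH1 and DDX58 also rose in PC3, and libraries from 72 h alone give no order of events. IFIH1 (chr2:163123589-163175213, minus strand), which detects long double-stranded RNA, rose in PC3 from 10.3, 6.48 and 10.8 CPM to 125, 104 and 122, and stood in VCaP at 12.4, 12.3 and 11.2 before and 12.5, 12.8 and 12.0 after. Its VCaP values overlapped, with an effect of 0.05, and the difference was -3.61 (SE 0.21, adjusted p = 2.23e-08). DDX58, which encodes the sensor RIG-I, followed the same pattern with effects of 3.63 and -0.12. PC3 NSI replicate 2 was the lowest control for OAS3, IFIH1 and DDX58. Of 31 ligand, receptor and signalling genes tested from a list of 34, 16 rose and 2 fell in PC3, 12 rose and 2 fell in VCaP, and 17 had a called difference, 11 of them negative. The receptor chains IFNGR1 and IFNGR2, which bind interferon gamma, ran the other way: IFNGR1 fell by 0.31 in PC3 and rose by 0.98 in VCaP, and IFNGR2 fell by 0.54 and rose by 0.36. Among ligands, IFNL1 held 5 counts over the PC3 NSI libraries and 163 over the PC3 siFOXA1 libraries, and 1 count in each VCaP group. IFNB1, listed at 2 and 49 counts in PC3, did not pass the filter and was not tested.

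Promoters of these genes are shown because members of the list moved together in PC3. They are from RefSeq (GRCh38.p14), 5′ to 3′ on the gene's strand and upstream of the start, with matches to the core ISRE (GAAA, any 2 bases, GAAA) on either strand in capitals. A match is a description of letters, not of binding.
OAS3 (chr12:112938301-112938473, plus strand): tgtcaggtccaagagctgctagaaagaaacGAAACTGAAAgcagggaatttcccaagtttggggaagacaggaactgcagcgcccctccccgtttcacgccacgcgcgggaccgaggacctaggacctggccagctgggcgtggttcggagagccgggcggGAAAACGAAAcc
HERC5 (chr4:88456964-88457084, plus strand): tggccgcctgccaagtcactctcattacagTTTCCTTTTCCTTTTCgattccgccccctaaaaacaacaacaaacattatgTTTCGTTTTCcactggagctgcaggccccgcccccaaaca
IFIH1 (chr2:162318685-162318873, minus strand): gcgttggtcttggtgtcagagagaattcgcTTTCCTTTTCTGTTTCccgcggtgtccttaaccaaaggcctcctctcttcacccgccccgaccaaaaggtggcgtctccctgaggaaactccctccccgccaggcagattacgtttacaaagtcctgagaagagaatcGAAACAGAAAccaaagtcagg
TAP1 (chr6:32853793-32853868, minus strand): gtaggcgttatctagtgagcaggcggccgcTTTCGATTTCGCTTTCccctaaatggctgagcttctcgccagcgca

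The HERC5, IFIH1 and TAP1 windows each hold a pair of overlapping matches, printed as 1 run of capitals. OAS3 and HERC5, which moved in opposite directions in the lines, and IFIH1, which moved in PC3, all carry the letters. ISRE letters occurred in 3.65% of the 27305 genes with a promoter of 300 bases in the table. Among class I presentation genes they occurred in 9 of 16 matched promoters (56.3%). Of the 50 effectors only 39 had a promoter entry (78%, under 80%), so a share over that list would be void. USP18 had no entry.

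Antigen presentation by class I molecules, which shows intracellular peptides to T cells, rose in PC3 and split in VCaP. Of 20 genes tested, 19 rose in PC3 and 0 fell (0 at an unadjusted p under 0.05 in edgeR, and 0 with DESeq2). In VCaP 4 rose and 7 fell, and those that fell included HLA-B, TAP1, TAP2, ERAP2, PSMB8 and PSMB9. The difference was negative at 17 of 20, with a median of -1.45. Medians were 1.37 in PC3 and 0.06 in VCaP. TAP1 (chr6:32812986-32821755, minus strand), a subunit of the peptide transporter into the endoplasmic reticulum, went from 28.9, 31.7 and 35.5 CPM to 169, 172 and 176 in PC3 and from 18.2, 15.5 and 18.7 to 11.1, 11.3 and 10.4 in VCaP. The groups were apart in both lines and the difference was -3.10 (SE 0.14, adjusted p = 1.29e-09). ERAP2, which trims the peptides, rose by 1.36 in PC3 and fell by 1.64 in VCaP (difference -3.01, SE 0.13). HLA-B, a heavy chain of the peptide-binding molecule, differed by -2.82, and B2M, its light chain, rose by 1.33 in PC3 and stood at 0.14 in VCaP. Exons of TAP1, HLA-B and ISG15 overlap a gene on the opposite strand, and since strand was ignored in PC3 their PC3 counts may include reads of that gene. Of the 20, 5 had no exon overlap with another gene, and 4 of these had a called negative difference.

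**Figure D2:**
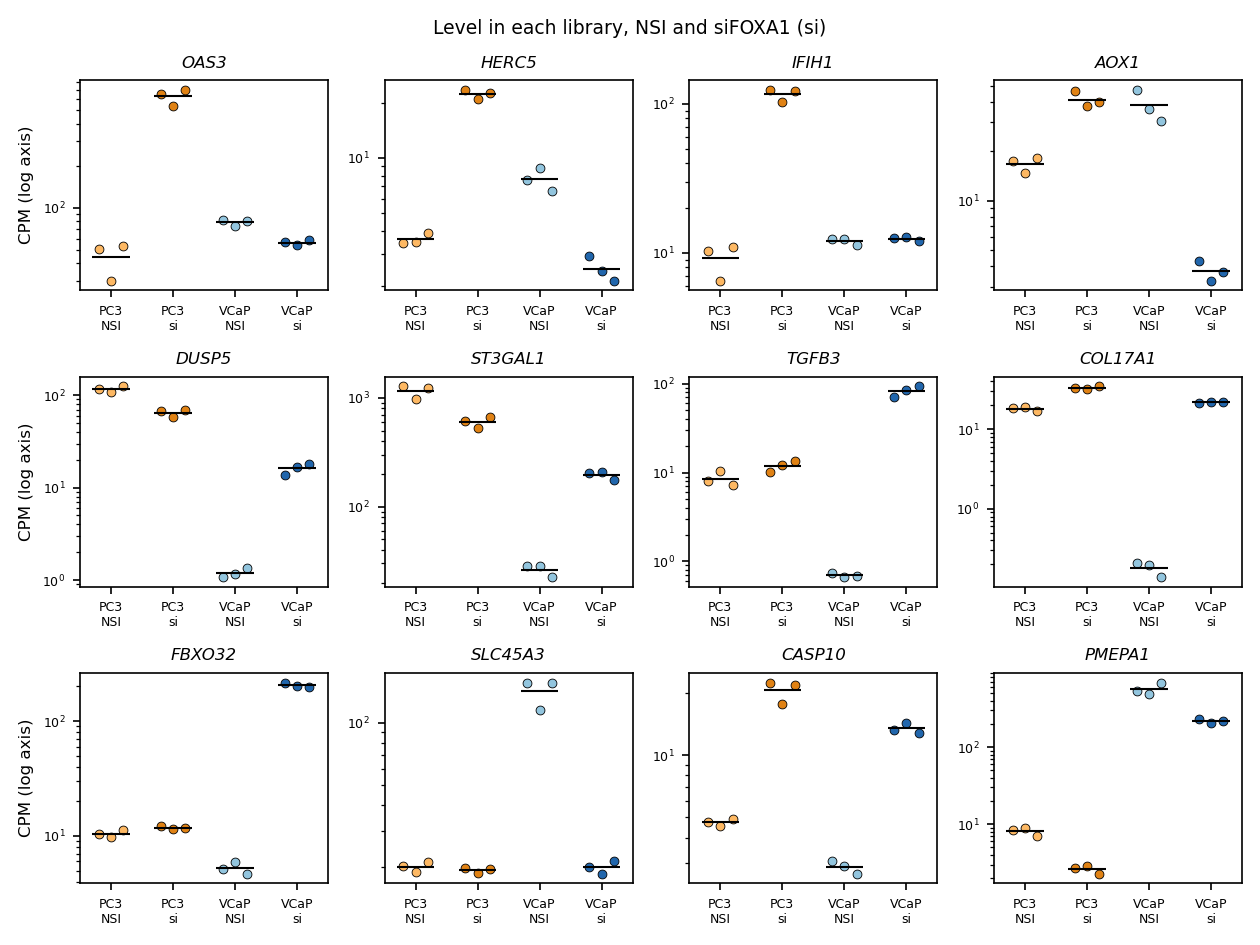
CPM (log axis) in each of the 12 libraries for 12 genes with opposite, line-specific or shared responses, with 3 points per group and a line at their mean. OAS3 and HERC5 rise in PC3 and fall in VCaP, IFIH1 rises in PC3, TGFB3, COL17A1 and FBXO32 jump in VCaP, and CASP10 and PMEPA1 move alike.

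Luminal keratins and secretory proteins had no common direction: of 21 tested, 6 rose and 8 fell in PC3, 7 rose and 7 fell in VCaP, and the difference was positive at 5 and negative at 4. The prostate genes that follow lie outside that list, and the choice of them was made after their values were seen. ACPP, prostatic acid phosphatase, went from 2223, 2314 and 2109 CPM to 561, 469 and 498 in VCaP. In PC3 it rose from 3.18, 4.12 and 3.46 to 6.27, 6.49 and 6.68 CPM. The groups were separate in both lines, at far lower levels in PC3, and the difference was -2.98 (SE 0.16, adjusted p = 6.82e-09). STEAP1, STEAP2, TRPM8, HERC3 and C1orf116 also rose in PC3 and fell in VCaP. Being picked by their values, such genes give no share of prostate genes with this pattern. FKBP5, a co-chaperone, ran opposite to these: it went from 17.4, 15.1 and 15.7 CPM to 11.2, 10.8 and 11.9 in PC3 and from 45.5, 47.1 and 51.1 to 135, 130 and 145 in VCaP (difference 2.02, SE 0.12). SLC45A3, the prostein transporter, fell in VCaP only: its PC3 values were 20.2, 18.9 and 21.3 CPM before and 19.7, 18.7 and 19.7 after, and its VCaP values 156, 115.5 and 157 before and 20.1, 18.6 and 21.5 after (difference -2.78). After siFOXA1 its VCaP range, 18.6 to 21.5 CPM, enclosed the PC3 values.

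Transcription factors of the luminal lineage fell in both lines more than they rose: 8 of 20 fell and 4 rose in PC3, and 10 fell and 2 rose in VCaP. The list includes FOXA1, the siRNA target, so its fall is counted in both lines and was set by the design. SPDEF, an ETS factor of secretory epithelium, went from 86.8, 87.5 and 94.2 CPM to 34.1, 37.5 and 33.4 in PC3 and from 186, 155 and 185 to 23.2, 17.8 and 22.8 in VCaP. It fell without overlap in each line, by 1.35 and 3.04, and the fall was larger in VCaP (difference -1.69, SE 0.15, adjusted p = 1.34e-06). GATA2, a zinc finger factor, fell by 0.50 in PC3, where its level was low, and by 0.41 in VCaP, a difference of 0.08 that was not called.

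AOX1 had the most negative difference among protein-coding genes with at least 5 CPM in each line. This aldehyde oxidase (chr2:201450591-201536218, plus strand) rose in PC3 from 17.5, 14.8 and 18.2 CPM to 46.3, 37.5 and 39.8 and fell in VCaP from 47.5, 36.2 and 30.8 to 4.32, 3.27 and 3.71. The groups were apart in both lines, and the difference was -4.63 (SE 0.22, adjusted p = 2.97e-09). Of 28 genes of steroid and aldehyde metabolism tested, 11 rose and 2 fell in PC3 and 12 rose and 10 fell in VCaP. FAM84A had effects of 1.34 and -1.29.

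Other genes of opposite response ran the reverse way, down in PC3 and up in VCaP. DUSP5 (chr10:112257596-112271302, plus strand), a nuclear phosphatase that inactivates ERK and is itself induced by ERK signalling, went from 115.98, 109 and 126 CPM to 67.3, 58.2 and 68.9 in PC3. In VCaP it went from 1.07, 1.15 and 1.35 to 13.6, 16.8 and 18.2. All groups were separate and the difference was 4.62 (SE 0.18, adjusted p = 3.23e-10). DUSP4, a related phosphatase, had effects of -0.86 and 1.57 (difference 2.43). ST3GAL1, a sialyltransferase that caps O-glycans, went from 1283, 982 and 1225 CPM to 616, 524 and 662 in PC3 and from 28.2, 28.5 and 22.4 to 203, 210.2 and 176 in VCaP. Its difference was 3.85 (SE 0.19, adjusted p = 4.52e-09). SLITRK6, a neuronal membrane protein, had effects of -1.0 and 1.25 (difference 2.26).

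NRF2 targets, the antioxidant and detoxifying enzymes, rose more widely in VCaP. Of 27 tested, 16 rose and 2 fell in VCaP, and 6 rose and 8 fell in PC3. The difference was positive at 13 and negative at 1, with a median of 0.35. HMOX1, haem oxygenase, rose in both lines, from 16.0, 14.9 and 21.6 CPM to 61.8, 70.6 and 65.5 in PC3 and from 0.414, 0.429 and 0.483 to 13.3, 15.3 and 23.4 in VCaP (difference 3.37). AKR1C1, an aldo-keto reductase that inactivates progesterone, fell in PC3 from 10.0, 12.7 and 8.66 CPM to 7.45, 6.96 and 7.10 and rose in VCaP from 1.96, 1.42 and 1.72 to 10.1, 12.1 and 14.2 (difference 3.37). AKR1C genes are near-identical copies, so their split is uncertain. ME1, malic enzyme, and GSR, glutathione reductase, were also opposite.

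Sterol and fatty acid synthesis fell broadly in PC3, where 20 of 34 genes were lower and 3 higher, with a median of -0.30. In VCaP 8 rose and 5 fell, with a median of 0.04 that turned to -0.0008 under library size alone. The difference was called at 20 genes, 14 positive and 6 negative, among them 6 of opposite direction. SREBF1, a transcription factor of lipid synthesis genes, went from 147, 141 and 149 CPM to 122, 124 and 118 in PC3 and from 118, 115.6 and 112 to 228, 249 and 217 in VCaP (difference 1.27, SE 0.11). SC5D, a late enzyme of sterol synthesis, fell by 0.43 and rose by 0.82. INSIG1, which retains the sterol sensor in the endoplasmic reticulum, fell by 0.29 in PC3 and rose by 0.34 in VCaP. The amino acid and unfolded protein response list was similar in shape: 10 of 35 fell and 1 rose in PC3, 12 rose and 7 fell in VCaP, and DDIT4, ASNS, CHAC1, SESN2, SLC3A2 and WARS were opposite. ASNS, asparagine synthetase, went from 247, 229 and 265 CPM to 187, 187 and 180.1 in PC3 and from 18.3, 18.7 and 19.7 to 24.9, 24.4 and 24.4 in VCaP.

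Replication-dependent histones, which package new DNA in S phase, rose in PC3 and fell in VCaP. Of 26 tested from a list of 28, 10 rose in PC3 and 0 fell, and 24 fell in VCaP and 0 rose (both 0 at an unadjusted p under 0.05 in edgeR and with DESeq2). The difference was negative at 20, with a median of -1.96. Their summed level was 156, 153 and 176 CPM in PC3 NSI and 294, 316 and 293 after siFOXA1, against 3683, 3507 and 4316 and then 1827, 1532 and 1578 in VCaP. HIST1H2BK went from 35.3, 37.0 and 37.9 CPM to 64.2, 75.9 and 61.4 in PC3 and from 96.2, 92.4 and 107 to 46.1, 38.2 and 37.1 in VCaP (difference -2.15). Most histone mRNAs lack a polyA tail, and PC3 was sequenced from polyA RNA and VCaP from total RNA. The part of the kit in this difference was not tested, and members share sequence, so single-gene counts are uncertain.

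The most positive differences were rises that were called in VCaP alone or were far larger there. TGFB3 (chr14:76424545-76447534, minus strand), a ligand of the TGF-beta receptors, rose in VCaP from 0.734, 0.663 and 0.690 CPM to 71.5, 84.8 and 93.9. In PC3 it went from 7.94, 10.3 and 7.15 to 10.2, 12.1 and 13.6 CPM. The PC3 groups overlapped, with an effect of 0.50 (adjusted p = 0.0130), while those in VCaP were far apart, and the difference was 6.40 (SE 0.24, adjusted p = 2.95e-10). An opposite-strand gene overlaps TGFB3, and strand was ignored in PC3. COL17A1 (chr10:105791044-105845760, minus strand), the collagen that anchors basal cells to the basement membrane, went from 0.207, 0.195 and 0.138 CPM to 21.2, 22.1 and 22.3 in VCaP and from 18.4, 18.8 and 16.9 to 33.0, 32.3 and 34.9 in PC3. It rose in both lines, by 6.93 and 0.89, and the rise in VCaP was the larger by 6.04 (SE 0.17, adjusted p = 9.83e-12).

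FBXO32 (chr8:124510129-124553446, minus strand), an F-box protein of ubiquitin ligases and a known FOXO target, stood in PC3 at 10.4, 9.87 and 11.2 CPM before and 12.2, 11.5 and 11.7 after. In VCaP it rose from 5.17, 5.96 and 4.69 CPM to 216, 204 and 199, and the difference was 5.12 (SE 0.13, adjusted p = 9.83e-12). The PC3 change of 0.17 was not called. Of the 21 other FOXO targets listed, 6 rose and 7 fell in VCaP, and SESN3 fell by 1.51 there and rose by 0.42 in PC3. BTG1, an antiproliferative factor, stood at 59.0, 54.6 and 59.2 CPM in PC3 NSI and 57.1, 51.5 and 54.4 after, and rose in VCaP from 25.7, 24.8 and 27.3 to 199, 206 and 233 (difference 3.12). S100A6, a calcium-binding protein, had a PC3 effect of -0.05 and rose by 4.16 in VCaP. SLC7A8, an amino acid transporter, rose by 2.95 in VCaP. Falls found in VCaP with a PC3 effect near 0 included SLC39A6, a zinc transporter, which went from 478, 478 and 531 CPM to 66.4, 53.1 and 55.4 (difference -3.01). CLMN (-3.36) and MCCC2, a subunit of an enzyme of leucine breakdown (-2.92), fell likewise.

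Genes listed for the hemidesmosome and the basal layer, which in the prostate lies beneath the luminal layer, rose more often in VCaP than in PC3. Of 23 tested from a list of 24, 12 rose and 2 fell in VCaP, and 7 rose and 1 fell in PC3. The difference was positive at 11 and negative at 3, with a median of 0.83. LAMB3, a laminin chain, rose by 1.23 in PC3 and 2.96 in VCaP. KRT19 was at 503, 667 and 578 CPM in PC3 NSI and 528, 596 and 458 after, and rose in VCaP from 24.4, 21.1 and 17.6 to 47.0, 41.9 and 37.7. LAMA3, which pairs with LAMB3 in the same laminin, was opposite, up by 0.98 in PC3 and down by 0.76 in VCaP. Basal markers of the list did not all follow. KRT14 fell in VCaP from a mean of 2.25 to 1.20 CPM (log2 -0.90), and TP63 had no called change in either line. KRT5 was at 0.0299 CPM or less in every group mean and was not tested. Of the 12 that rose in VCaP, 8 started under 1 CPM there (S100A2, KRT6B, KRT7, KRT15, COL17A1, TRIM29, SFN and LAMB3), and of these only COL17A1 passed 5 CPM, with a mean of 21.9 after siFOXA1. Those starting higher included ITGB4, KRT19 and DST.

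Among TGF-beta ligands, receptors and targets, 13 of 37 rose and 6 fell in VCaP, and 6 rose and 10 fell in PC3. ID1, a target of BMP signalling, rose by 1.53 in VCaP and had an effect of 0.41 in PC3 that was not called. GDF15, a stress-induced ligand, fell by 1.13 in PC3 and rose by 0.49 in VCaP, and SMAD7, the inhibitory SMAD, was opposite too (-0.61 and 0.36). PMEPA1, an inhibitor of the pathway, fell in both lines, as described below.

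Collagens and other matrix proteins rose in PC3 and took both directions in VCaP. In PC3 18 of 35 rose and 1 fell, whereas in VCaP 8 rose and 10 fell, and the difference was negative at 16 and positive at 3 (median -0.78). THBS1, thrombospondin, a member that also activates latent TGF-beta, rose in VCaP from 1049, 947 and 1128 CPM to 7873, 7236 and 5578 and was at 40.1, 34.6 and 36.1 against 39.5, 32.4 and 41.0 in PC3. The summed level of the list followed it in VCaP, from 3376, 3087 and 3097 CPM to 9713, 9112 and 7251. Without THBS1 the VCaP sum went from 2327, 2140 and 1969 CPM to 1840, 1876 and 1673, and the PC3 sum from 6516, 5818 and 6215 to 7800, 7349 and 7032. The 2 lines thus moved apart in the sum of the other 34 members. COL5A2, a fibrillar collagen chain, fell in VCaP from 62.5, 46.4 and 35.3 CPM to 6.49, 5.35 and 3.36, while its PC3 values were 512, 458 and 494 before and 617, 619 and 661 after (effect 0.37, not called). LAMA4, a laminin chain of vessel walls, rose by 0.61 in PC3 and fell by 2.86 in VCaP from 0.811 CPM. Of 6 stromal markers 5 were tested. In PC3 COL3A1 rose from a mean of 0.806 to 3.97 CPM, PDGFRA fell from 5.30 to 3.72 and PDGFRB from 0.924 to 0.600, and COL1A1 was at 20.8 before and 32.2 after, which was not called. In VCaP LUM fell from 10.3 to 0.668 CPM and PDGFRB from 0.249 to 0.0981. COL1A1 and COL3A1 are also members of the matrix list. Markers of other cell types summed to 80.7 to 90.4 CPM in PC3 NSI and 107 to 122 after, and to 16.5 to 24.1 and then 7.22 to 10.4 in VCaP, and their part in the matrix results was not tested. Mesenchymal genes were divided: 14 of 31 tested rose and 3 fell in PC3, and 11 rose and 7 fell in VCaP. CDH2, N-cadherin, rose by 0.46 in PC3 and fell by 1.66 in VCaP, and SNAI2, a repressor of epithelial genes, fell by 0.45 and rose by 3.45 from 0.0435 CPM. The median difference of the mesenchymal list was -0.40 although its VCaP median (0.62) was above its PC3 median (0.36), and over members with enough counts in each line the sign turned positive.

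DNA replication genes fell in VCaP and for the most part not in PC3. Of 50 tested, 38 fell in VCaP and 0 rose (0 at an unadjusted p under 0.05 in edgeR, and 0 with DESeq2), with a median of -0.66. In PC3 7 fell and 4 rose, with a median of -0.14, and 17 fell there when the replicate number was a block in PC3. The difference was negative at 30 of 50, with a median of -0.54. RRM2, the small subunit of ribonucleotide reductase, went from 122, 121 and 119 CPM to 29.9, 24.6 and 21.2 in VCaP. In PC3 it was at 18.4, 28.0 and 17.0 before and 14.9, 16.9 and 16.2 after, without a called change (-0.40), and the difference was -1.86 (adjusted p = 2.3e-05). MCM2, a subunit of the replicative helicase, had effects of -0.07 and -0.96, and CHAF1B, a histone chaperone subunit, rose by 0.73 in PC3 and fell by 0.88 in VCaP.

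Repair by homologous recombination followed the replication genes. In VCaP 21 of 36 fell, and in PC3 3 fell and 2 rose. The difference was negative at 14 and positive at 1. CHEK1, a checkpoint kinase, went from 53.4, 55.7 and 59.4 CPM to 31.2, 29.3 and 28.4 in VCaP and was at 9.51, 12.6 and 9.19 against 12.3, 13.1 and 12.3 in PC3, where the groups overlapped (difference -1.19). BRIP1, a helicase partner of BRCA1, was opposite (0.94 and -0.49). With the replicate block in PC3, 7 of these genes rose in PC3 and 3 in VCaP.

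**Figure D3:**
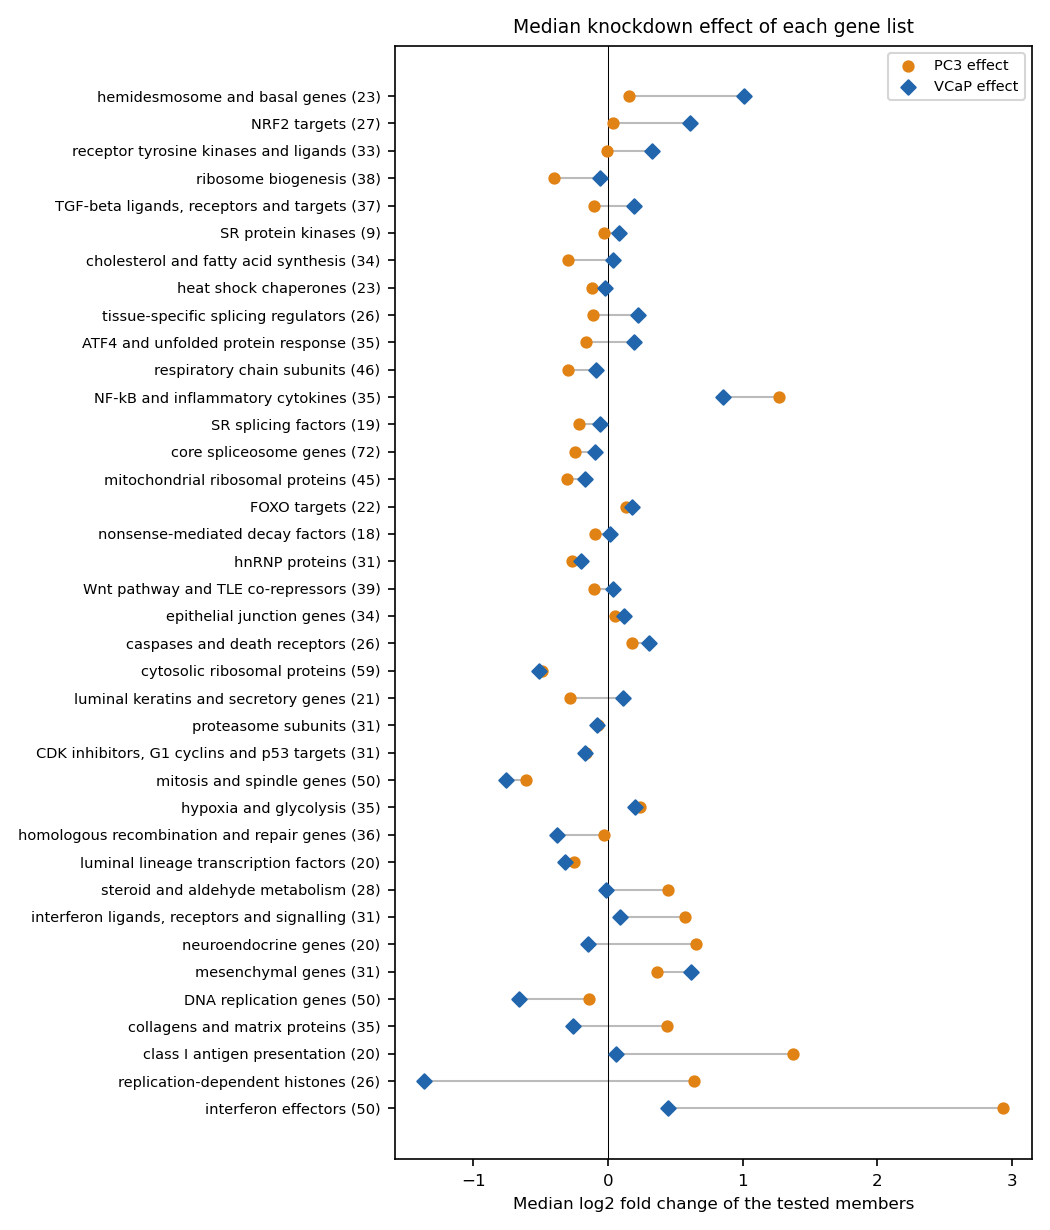
Median log2 effect of siFOXA1 in PC3 and in VCaP for 38 gene lists, ordered by the median difference. Interferon effectors, class I presentation and histones lie at the negative end, and hemidesmosome and basal genes at the positive end.

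Mitosis and spindle genes fell in both lines by similar amounts. All 50 were tested, and 40 fell in PC3 and 45 in VCaP, with medians of -0.61 and -0.76. Rises numbered 0 in both lines (0 at an unadjusted p under 0.05 in edgeR, and 0 with DESeq2). Both falls were called with no called difference at 35 of 50, the difference was called at 9, each negative, and its median was -0.10. Their summed level went from 2156, 2124 and 2110 CPM to 1407, 1367 and 1425 in PC3 and from 5151, 5078 and 4680 to 3560, 3157 and 2637 in VCaP. PLK1 (chr16:23690143-23701688, plus strand), a kinase that drives mitotic entry, went from 59.0, 58.9 and 61.4 CPM to 31.3, 30.01 and 29.8 in PC3 and from 32.1, 30.5 and 31.2 to 16.1, 15.3 and 10.6 in VCaP. Its falls of 0.98 and 1.16 differed by -0.18, which was not called (adjusted p = 0.481). AURKA, a centrosome kinase, fell by 1.07 and 0.99, and CCNB1, the mitotic cyclin, by 0.91 and 0.94. INCENP and ESPL1 were among 6 mitosis genes whose fall was called in VCaP only, with a called difference.

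Promoters of mitosis genes are shown because their falls were shared. Capitals mark the core CHR letters TTTGAA on either strand, in windows upstream of the start (RefSeq, GRCh38.p14).
PLK1 (chr16:23678830-23678888, plus strand): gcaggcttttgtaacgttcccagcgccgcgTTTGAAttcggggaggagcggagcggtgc
CDC20 (chr1:43358773-43358951, plus strand): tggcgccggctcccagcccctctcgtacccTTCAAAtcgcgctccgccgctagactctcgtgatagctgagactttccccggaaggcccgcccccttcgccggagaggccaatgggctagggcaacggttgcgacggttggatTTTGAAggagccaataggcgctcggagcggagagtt
DLGAP5 (chr14:55191659-55191753, minus strand): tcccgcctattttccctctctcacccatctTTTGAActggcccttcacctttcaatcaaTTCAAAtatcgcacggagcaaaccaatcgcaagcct
SAPCD2 (chr9:137070558-137070600, minus strand): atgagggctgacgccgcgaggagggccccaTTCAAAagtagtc

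These letters occurred in 29 of the 43 mitosis promoters in the table (67.4%) and in 15.4% of all 27305. CDC20 and DLGAP5 each hold them more than once. SAPCD2, a spindle orientation protein outside the list, fell by 1.37 in PC3 and 1.11 in VCaP.

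Cytosolic ribosomal proteins also fell alike. Of 59 tested, 38 fell in PC3 and 44 in VCaP, with medians of -0.49 and -0.51. The difference was called at 0 of 59, with 0 at an unadjusted p under 0.05 in edgeR and 0 with DESeq2, although 3 were positive and 1 negative with the replicate block in both lines. RPL5, a protein of the large subunit, went from 831, 1049.7 and 859 CPM to 484, 559 and 513 in PC3 and from 638.5, 660.3 and 805 to 450.5, 459 and 551 in VCaP. It fell by 0.82 and 0.53. Ribosomal proteins have many processed copies in the genome, among which fragments were divided.

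Ribosome assembly factors, by contrast, fell mainly in PC3: 28 of 38 fell there, and in VCaP 7 fell and 1 rose. Medians were -0.40 and -0.06, and the difference was positive at 10 and negative at 2. Called differences made up 31.6% of the list, against 31.3% of all genes with enough counts in each line. The positive calls numbered 17 with the replicate block in PC3 and 5 under library size alone. GTPBP4, a nucleolar GTPase, went from 95.5, 96.1 and 91.1 CPM to 71.3, 72.5 and 72.8 in PC3 and was at 77.6, 79.3 and 89.0 against 78.0, 79.0 and 79.9 in VCaP (difference 0.33, adjusted p = 0.0358). PPP1R14B, a phosphatase inhibitor, had the largest fall among PC3-specific genes with a VCaP interval within 0.5 of 0: 301, 395 and 346 CPM before and 87.0, 105 and 81.8 after, against 246, 250.3 and 317 and then 248, 278 and 310.3 in VCaP (difference 1.97). TMEM56, HOMER2 and GPD1L fell in PC3 by 1.47, 1.29 and 1.27, with VCaP effects of 0.12, 0.16 and -0.00. Rises in PC3 with a called difference and no called VCaP change included GMPR, a guanine nucleotide reductase (2.90), and APOL2, an apolipoprotein L (2.62).

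Inflammatory genes under NF-kB rose in both lines. Of 35, 23 rose and 1 fell in PC3 and 18 rose in VCaP. The difference was positive at 9 and negative at 8, with a median of 0.14. CXCL10 (chr4:76942270-76944650, minus strand), a chemokine that draws T cells, went from 0.0135, 0 and 0.152 CPM to 1.30, 1.18 and 1.17 in PC3 and from 2.54, 2.48 and 3.35 to 29.3, 33.6 and 33.3 in VCaP. The groups were apart in both lines, the PC3 NSI libraries held 30 counts in all, and the difference of -0.74 was not called (adjusted p = 0.411). TNFAIP3, a brake on NF-kB, rose by 1.68 and 1.82. CXCL8, a neutrophil chemokine, rose by 2.23 in PC3 and 3.56 in VCaP, and the rise in VCaP was the larger (difference 1.34, adjusted p = 0.0293). TNFSF10, the death ligand TRAIL and also an interferon-stimulated gene, rose in both lines but far more in PC3 (4.57 and 0.58). NFKB1, which encodes a subunit of the factor itself, was opposite, down by 0.51 in PC3 and up by 0.52 in VCaP.

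Single genes also moved by similar amounts in the lines, and those with the largest shared rises and falls and no called difference are given here. CASP10 (chr2:202047604-202094129, plus strand), an initiator caspase, went from 4.76, 4.54 and 4.90 CPM to 22.4, 17.7 and 21.9 in PC3 and from 3.07, 2.92 and 2.67 to 13.2, 14.3 and 12.8 in VCaP. Its rises of 2.13 and 2.22 differed by 0.09 (SE 0.15, 95% interval -0.23 to 0.42). KITLG, the ligand of the KIT receptor, went from 11.8, 11.9 and 11.3 CPM to 46.4, 40.6 and 45.5 in PC3 and from 17.6, 17.8 and 13.8 to 66.9, 61.2 and 64.1 in VCaP, a difference of 0.04 (95% interval -0.25 to 0.34). ANKRD44 rose by 1.58 and 1.78, and ADGRG6, an adhesion receptor, by 1.49 and 1.62. PMEPA1 (chr20:56223448-56286592, minus strand) fell from 8.44, 8.97 and 7.14 CPM to 2.70, 2.89 and 2.28 in PC3 and from 529, 485 and 684 to 234, 203 and 215 in VCaP. The falls of 1.64 and 1.38 differed by 0.26 (95% interval -0.14 to 0.66). FZD4, a Wnt receptor, fell by 1.35 and 1.28, and FAM64A, a mitotic protein, by 1.22 and 1.44. KITLG, PMEPA1, FZD4, FAM64A and SAPCD2 overlap opposite-strand genes.

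Splicing factors fell more often than they rose in both lines. Of 19 SR proteins, 9 fell and 1 rose in PC3 and 6 fell and 2 rose in VCaP, and SRSF3 fell by 0.62 and 0.36. Core spliceosome genes fell at 35 of 72 in PC3 and at 20 in VCaP, where 3 rose. Their difference was positive at 11 and negative at 4 (25 positive with the replicate block in PC3), with a median of 0.13. That is 20.8% of the list, under the 31.3% of all genes with enough counts in each line. Under library size alone it was positive at 6 and negative at 5. Of 31 hnRNP genes 17 fell in PC3 and 12 in VCaP. Among kinases of SR proteins CLK1 rose by 0.52 in VCaP with a PC3 effect of 0.09, a called difference (adjusted p = 0.0371). Tissue-specific regulators were more divided: MBNL2 rose by 1.34 in VCaP with a PC3 effect of -0.15, and RBM47 rose by 0.89 in PC3 and fell by 0.50 in VCaP.

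Genes of a cell death list, which act for or against death, rose more often than they fell in both lines. The list holds caspases, death receptors, their adaptors, BCL2 family members and inhibitors of death. Of 26 tested, 11 rose and 2 fell in PC3 and 14 rose and 5 fell in VCaP. The rises included the inhibitors CFLAR, BIRC2 and BIRC3 in both lines, BCL2L1 in PC3 and XIAP in VCaP. BCL2 and MCL1, which also inhibit death, fell in VCaP. FAS, a death receptor, rose by 1.24 and 1.21.

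**Figure D4:**
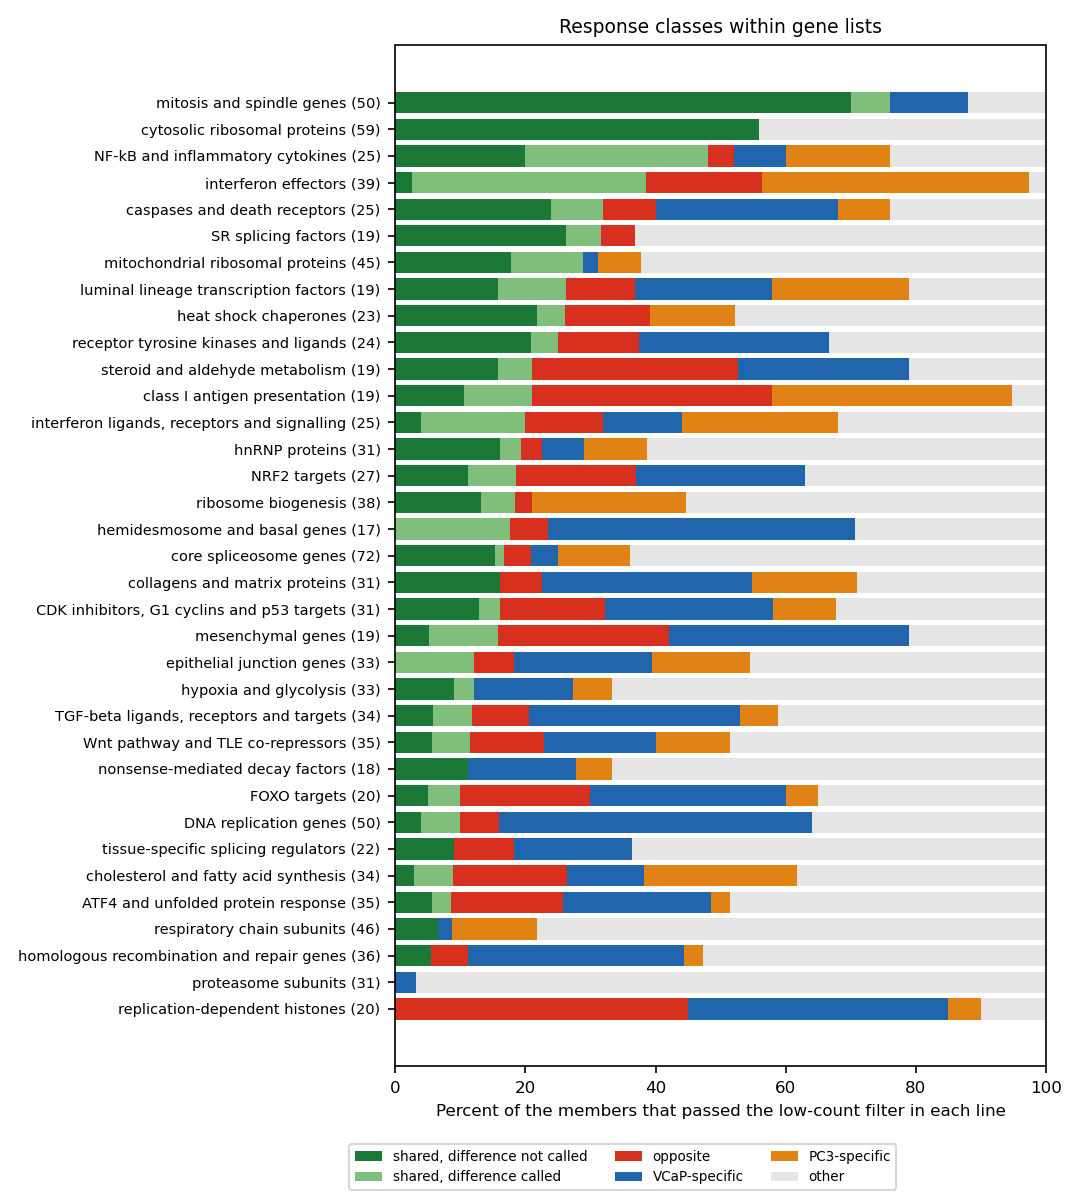
Shares of each gene list in each pattern of response, as stacked bars in percent, for lists with at least 15 members with enough counts in each line. Shared falls fill most of the mitosis bar, and 24 of the 50 DNA replication genes are in the VCaP-specific class.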

How the data were processed

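RNA was sequenced from 12 libraries, 3 in each of 4 groups. The sample titles give group and replicate number. Each deposited table lists 60106 genes with an estimated count. Per the submitters' processing notes, STAR 2.7.3a and Subread 2.0.0 (featureCounts) were used on GRCh37. The authors obtained the expected counts, per the file headers, from exons of the GENCODE v28lift37 basic annotation, counting only fragments with both ends mapped and dividing a fragment among its positions or genes. Strand was ignored in PC3 and reverse in VCaP, per the file headers. Exons of 5022 genes overlap another gene on the same strand and those of 10340 a gene on the opposite strand.

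Here counts were rounded and fitted with edgeR 4.0.16 in R 4.3.3 (TMM, filterByExpr by group, quasi-likelihood test, two-sided, 4 group means over 12 libraries). The difference is the VCaP effect minus the PC3 effect, both log2 of siFOXA1 over NSI. Benjamini-Hochberg adjustment ran over 30450 genes, and a call is an adjusted p under 0.05. Adjusted p-values in the text are from this test. The SE is the fold change divided by the square root of F. CPM values use TMM factors (0.955 to 1.06). The fit includes a small prior count, so folds from near 0 depend on it. The biological coefficient of variation, as edgeR names it, was 12.8% over 12 libraries. It was 14.9% in PC3 and 9.89% in VCaP with each line taken alone, and the main fit did not estimate it per line. A gene had enough counts in a line if it passed the filter on that line's libraries. Replicates of a group differed beyond sampling noise (chi-square per degree of freedom from 9.77 to 141). Scripts were tested on simulated data.

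Same-numbered PC3 libraries deviated together (correlations 0.195, 0.355 and 0.116), those of VCaP did not in every pair (0.062, 0.034 and 0.269), and the labels state no pairing. Blocked counts are printed where they changed by more than 1.5 times.

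The comparison and the 41 gene lists were chosen with earlier results of these data known. Named genes were the 5 most positive and 5 most negative differences, the leading opposite, shared and line-specific genes among protein-coding genes with at least 5 CPM in each line, and in each list the 3 members with the smallest adjusted p of the difference. Other list members were picked as examples after their values were seen. Promoters ran from 250 bases before to 50 after the start. Alternatives were DESeq2 1.42.0, limma 3.58.1 voom, other size factors and filters, gene subsets, a minimum difference, replicate blocks and leaving out each library. Some items are not reported here.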

Additional observations from a re-analysis of the deposited data

Results flagged for a closer look

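These results are listed because the effect of siFOXA1 differed between the lines by the test of the difference itself, as it did at 6744 genes, and each value is the log2 VCaP effect minus the PC3 effect. The more positive differences were TGFB3 6.40, COL17A1 6.04, FBXO32 5.12, DUSP5 4.62, S100A6 4.21, ST3GAL1 3.85, FOXA2 3.76, BTG1 3.12 and SLC7A8 2.70. Smaller positive values were DUSP4 2.43, SLITRK6 2.26, PPP1R14B 1.97, TMEM56 1.59, HOMER2 1.45 and GPD1L 1.27. The more negative differences were AOX1 -4.63, OAS3 -4.31, HERC6 -4.29, HERC5 -4.25, USP18 -4.00, DDX58 -3.75, IFIH1 -3.61 and CLMN -3.42. These were followed by GMPR -3.09, ERAP2 -3.01, SLC39A6 -3.01, APOL2 -2.86, MCCC2 -2.84, SLC45A3 -2.78, FAM84A -2.63 and FOXA1 -1.94.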

How the results depend on the processing

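The FOXA1 difference and the named genes' differences kept their sign in every alternative run, and of 2766 gene values 2743 kept their call, 15 gained one and 8 lost one. Of 943 list medians 100 moved by more than the spread between replicates. The median difference moved most often for sterol and fatty acid synthesis, in 11 of 23 alternatives. Class I presentation (8) and NRF2 targets (7) came next. Calls numbered 7380 with DESeq2, 7372 with voom, 8832 with a replicate block in both lines and 8689 with a replicate block in PC3 only. The share of tested genes with a called difference was 34.94% over genes passing the filter in each line, 35.38% over protein-coding genes and 12.22% with no filter. Over the 19427 genes with no exon overlap there were 4044 calls, 2014 positive and 2030 negative, with 904 shared, 311 shared but unequal, 625 opposite (355 of them higher in PC3), 1478 VCaP-specific and 991 PC3-specific, from fewer genes tested. Testing against a difference of 1 left 1172 calls (3.85%), 531 positive and 641 negative, by construction. With the replicate block, 950 (PC3 only) or 1096 (both lines) genes were shared but unequal and 1570 or 1658 opposite, 898 of the latter higher in PC3; the cause was not tested. Leaving out 1 library gave 5464 to 7235 calls, 2541 to 3376 positive and 2745 to 3869 negative, 16.67% to 24.9% of genes, with 1182 to 1642 shared, 375 to 608 shared but unequal, 784 to 1190 opposite (462 to 743 higher in PC3), 2078 to 2819 VCaP-specific and 1258 to 1706 PC3-specific, and FOXA1 from -2.067 to -1.849. Positive calls were 40.5% of all under library size alone against 50.1%. The TGFB3 rise in PC3 lost its call with each line fitted alone (0.46, adjusted p = 0.063), and the GPD1L difference did against a minimum of 1 (adjusted p = 0.318). GMPR and APOL2 gained a small called fall in VCaP in some alternatives. Depth is lower in VCaP, which limits precision for genes near 0 there.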

Other observations

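Genes of luminal keratins and secreted proteins fell or rose in about equal numbers. Of 21 tested, 6 rose and 8 fell in PC3, and 7 rose and 7 fell in VCaP. TFF1, a trefoil peptide of mucosal surfaces, fell in both lines, from 40.8, 43.5 and 48.1 CPM to 12.7, 14.1 and 12.1 in PC3 and from 2.29, 1.79 and 1.67 to 0.199, 0.0793 and 0.0955 in VCaP, more in VCaP (difference -2.17). TSPAN8, a tetraspanin, rose by 0.81 in PC3 and fell by 1.29 in VCaP. PIGR, the receptor that carries IgA to the lumen, rose in VCaP from 0.207, 0.331 and 0.293 CPM to 10.7, 15.4 and 12.2 and was near 0 in PC3, with 10 and 5 counts in the 2 groups. Junction genes had 11 positive and 7 negative differences among 34 (11 negative with a replicate block in PC3). JUP, plakoglobin, rose by 1.03 in VCaP, a rise called in that line alone. CD44, a hyaluronan receptor, rose in VCaP from 4.82, 4.85 and 6.17 CPM to 23.3, 23.5 and 24.9, and its PC3 effect of 0.24 was not called.

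Cell cycle inhibitors and p53 targets were divided, with 7 positive and 10 negative differences among 31. CDKN1A, the p21 inhibitor, had a PC3 effect of 0.25 and rose by 1.66 in VCaP, and CDKN2B, the p15 inhibitor, fell in PC3 from 339, 264 and 332 CPM to 207, 201 and 186 and rose in VCaP from 0.734, 0.721 and 0.845 to 2.67, 2.24 and 2.62. Receptor tyrosine kinases and ligands rose at 14 of 33 in VCaP and 8 in PC3; MERTK, a receptor for apoptotic cells, rose by 0.44 in PC3 and 1.81 in VCaP, and TGFA, an EGFR ligand, rose by 1.53 and fell by 0.51. In the Wnt list 9 differences were positive and 7 negative among 39; FZD7 was at 5.13 to 5.62 CPM in PC3 NSI and 5.24 to 5.67 after, and rose by 2.12 in VCaP. PFKFB3, a driver of glycolysis, rose in both lines, by 0.72 and 3.07, within a hypoxia list with 3 positive and 5 negative differences of 35 (9 negative with the block). Heat shock chaperones had 6 positive and 2 negative differences of 23, DNAJA1 rising by 0.59 in PC3 and falling by 0.55 in VCaP. Neuroendocrine genes rose at 7 of 20 in PC3, and 5 fell and 3 rose in VCaP. Of those PC3 rises, ENO2 and POU3F2 started at means of 60.0 and 6.63 CPM and the rest at 1.35 CPM or less. NPY fell in VCaP from 302, 224 and 246 CPM to 16.3, 10.9 and 20.8. XRN1, an exonuclease, rose by 1.54 in PC3 with a VCaP effect of -0.21, among 18 decay factors of which 4 differed. Mitochondrial ribosomal proteins fell at 26 of 45 in PC3 and 15 in VCaP, and respiratory chain subunits at 19 of 46 and 5 (32 and 10 with the replicate block in PC3). Proteasome subunits had 2 called differences of 31, both negative, and 6 with that block.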
